A study of Saccharomyces cerevisiae with 17 samples.

Results

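Expression in a FLO1-overexpressing strain was compared with that in a strain labelled BY4742::FLO8, both grown on the ground. The comparison rests on 6 of the 17 arrays of the series, namely the 3 titled FLO1 Ground and the 3 titled FLO8 Ground. All strains are BY4742, a haploid laboratory strain of mating type alpha derived from S288C. The FLO1 strain is labelled as a BY4742 FLO1 overexpression strain, and the labels do not name the promoter or say whether either construct is 1 clone. Cells were held in saline in an experiment module, received rich YPD medium 5 days later and grew for 72 h at 23 °C at normal gravity in an incubator that followed the flight temperature log. They were then filtered and fixed in RNALater, and total RNA was hybridised to Affymetrix Yeast Genome 2.0 arrays. Both groups therefore share the strain background, the storage in saline, the late growth stage and the fixation. The other arrays were 2 from the FLO1 strain and 3 from the FLO8-labelled strain grown in flight, and 3 from BY4742 WT grown on the ground, used here for a repeat of the contrast and for a baseline level. The 3 WT flight arrays entered only the choice of probe sets, the background level and an alternative fit, each over all 17 arrays.

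Yeast cells adhere to each other and to surfaces through large cell wall glycoproteins encoded by the FLO genes. Flo1 is a lectin that binds mannose chains on neighbouring cells and makes cultures flocculate, whereas Flo11 supports invasive growth, biofilm formation and pseudohyphae. Flo8 is a transcription factor that activates FLO1 and FLO11, and S288C-derived strains carry a nonsense mutation in FLO8 that leaves most FLO genes silent. The comparison sets cells labelled as overexpressing FLO1 against cells with high FLO11; flocculation itself was not measured here.

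All values are log2 levels of probe sets, and differences are the FLO1 mean minus the FLO8-labelled mean, so that 1 means a doubling. A gene was called when limma's Benjamini-Hochberg adjusted p was under 0.05 over 5449 genes. With 3 arrays a group, an exact permutation test of 1 gene cannot give a p below 0.1, so each call leans on the spread that limma pools over genes. The labels do not say that replicates were separate cultures, so p-values measure the spread between these arrays, which may be technical. The 3 FLO1 arrays correlated with each other at 0.9949 to 0.9962 and the FLO8-labelled arrays at 0.988 to 0.996. FLO8 Ground replicate 3 stood apart from its group, with a root mean square distance from the group mean of 0.173, against 0.0966 to 0.144 for the other two arrays. Counts of called genes and several gene lists are given with and without it, and other list tallies only with it.

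The FLO1 level matched the FLO1 label, and FLO11 was higher in the FLO8-labelled strain. FLO1 (YAR050W) read 12.90, 12.65 and 12.54 on the FLO1 arrays, against 9.87, 10.20 and 9.76 on the FLO8-labelled arrays. Every FLO1 array lay above every FLO8-labelled array, and the difference was 2.75 (SE 0.137, a 6.75-fold higher level, limma adjusted p = 1.55e-04). FLO11 (YIR019C) read 8.86, 8.70 and 8.98 on the FLO1 arrays, against 12.75, 12.53 and 11.24 on the FLO8-labelled arrays. It was the largest difference of the 5449 genes at -3.33 (SE 0.339, 10.02-fold lower in the FLO1 strain, limma adjusted p = 0.0064). Replicate 3 had the lowest FLO11 of the FLO8-labelled arrays, and without it the difference was -3.79 (SE 0.108, limma adjusted p = 7.26e-07). These are bulk cultures, so fewer cells carrying a transcript and less transcript per cell cannot be told apart.

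FLO8 (YER109C) itself was lower in the strain labelled FLO8. Its probe set read 9.37, 9.49 and 9.24 on the FLO1 arrays, against 7.87, 7.83 and 7.58 on the FLO8-labelled arrays. The groups did not overlap, and the difference was 1.61 (SE 0.106, 3.04-fold, limma adjusted p = 6.07e-04). WT arrays read 9.30 ± 0.19 (SD, n = 3), near the FLO1 strain's 9.36 ± 0.13 (n = 3). Which part of the gene the probes read, and how the FLO8 construct was made, is not given in the labels, so this probe set does not check the label.

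FLO9 (YAL063C), a close relative of FLO1, moved with it. It read 12.91, 12.83 and 13.03 on the FLO1 arrays, against 11.34, 11.50 and 11.13 on the FLO8-labelled arrays. The difference was 1.60 (SE 0.108, 3.04-fold, limma adjusted p = 6.07e-04), again without overlap. The FLO9 probe set is of the Affymetrix type whose probes match several transcripts, so FLO1 and FLO9 signal cannot be told apart there, and FLO5, which is near-identical to FLO1, has no probe set of its own in the table. FLO10 (YKR102W), a further lectin gene, averaged 9.95 ± 0.12 on FLO1 arrays and 9.78 ± 0.21 on FLO8-labelled arrays (SD, n = 3 each) and did not pass the test (difference 0.17, SE 0.118, limma adjusted p = 0.554). FLO1 and FLO9 both stood above the WT level in the FLO8-labelled strain too: FLO1 averaged 9.94 ± 0.23 there and 8.47 ± 0.27 in WT, and FLO9 averaged 11.32 ± 0.18 there and 10.65 ± 0.18 in WT (SD, n = 3 each, not tested here). FLO11 averaged 8.85 ± 0.14 in the FLO1 strain, against 8.57 ± 0.10 in WT. Of 7 flocculin and adhesin genes measured, 2 were higher and 1 was lower, against 0.404% of all 5449 genes called in either direction. These were FLO1, FLO9 and FLO11, the genes that set the strains apart and a close relative. The count therefore follows from the choice of strains and is no separate result. FLO1, FLO8, FLO9 and FLO11 kept their calls without any single array.

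**Figure D1:**
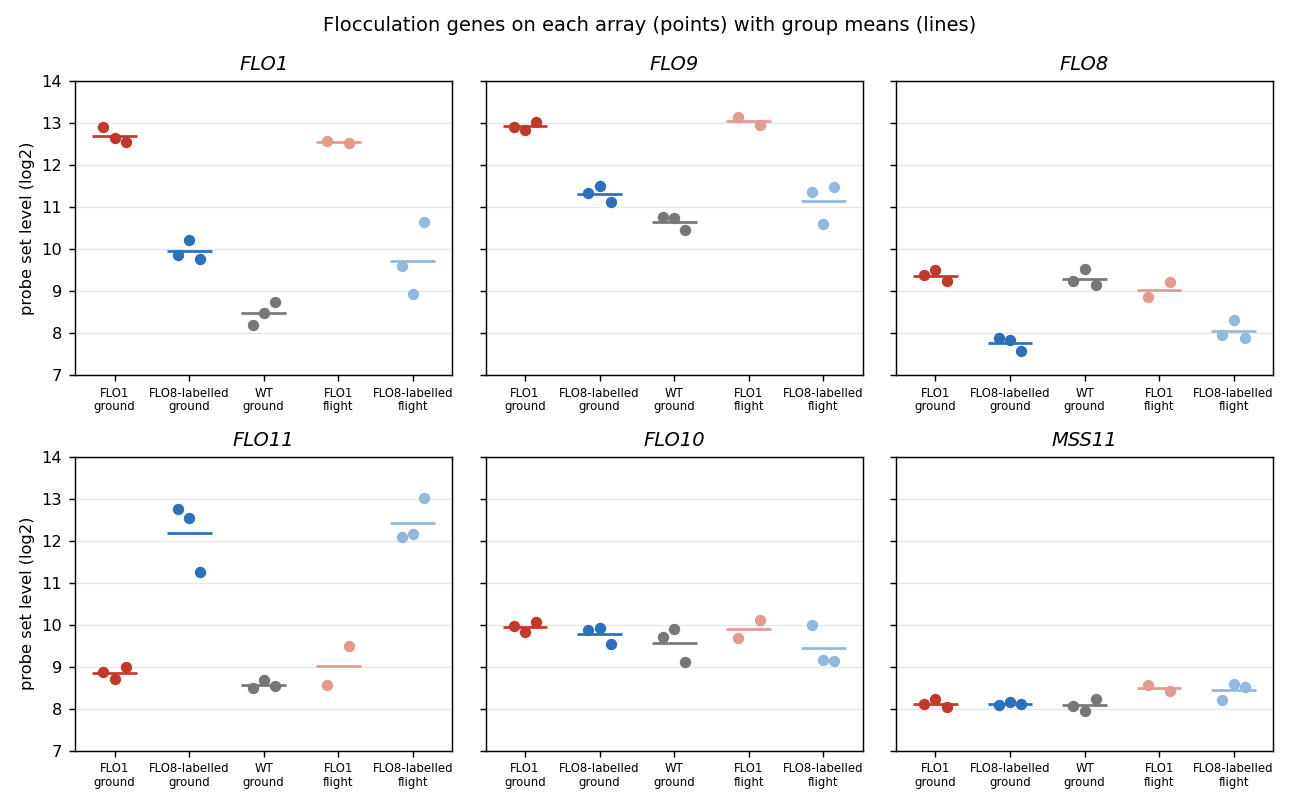
Log2 probe set levels of 6 flocculation genes on each array (points) with group means (lines), for the FLO1, FLO8-labelled and WT strains on the ground and the FLO1 and FLO8-labelled strains in flight. FLO1, FLO9 and FLO8 are higher in the FLO1 strain, FLO11 is higher in the FLO8-labelled strain (its ground replicate 3 lies lowest at 11.24), and the ground groups of FLO10 and MSS11 overlap.

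Of 5449 genes, 22 were called (0.404%), 12 higher (0.220%) and 10 lower (0.184%) in the FLO1 strain, and in all 22 the 6 arrays separated by strain. These counts depended on the arrays: without FLO8 Ground replicate 3 they were 59 and 94. With array weights they were 787 and 1066, in a fit that did not fully converge. Before adjustment, 730 genes (13.4%) had a p under 0.05. The arrays of the strains did not overlap in 518 genes that were higher (9.51%) and in 503 that were lower (9.23%). Only 6 of the 22 differed by more than 2-fold, namely FLO1, FLO8, FLO9 and AGA2 on the higher side and FLO11 and PRM7 on the lower side. TRP4, an enzyme of tryptophan synthesis, lay just outside the threshold (-0.59, SE 0.0936, limma adjusted p = 0.0522), and FUS3 just inside it (limma adjusted p = 0.0429). The WT mean was nearer to the FLO1 mean in 16 of the 22 and nearer to the FLO8-labelled mean in 6, which were FLO1, FLO9, PRM1, FIG1, PRM6 and RAS1.

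**Figure D2:**
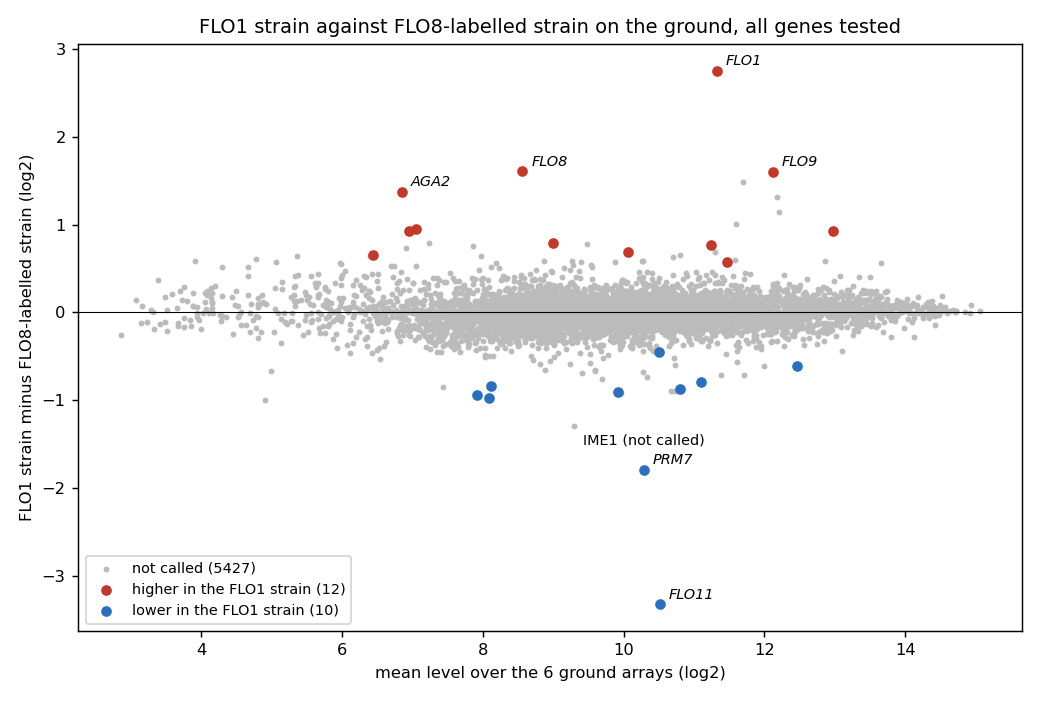
Difference between the strains (vertical axis, log2) against the mean level over the 6 ground arrays (horizontal axis, log2) for the 5449 genes tested. The 12 genes called higher in the FLO1 strain and the 10 called lower are coloured. FLO1 at 2.75 and FLO11 at -3.33 lie farthest from 0, and IME1 at -1.30 lies far out without a call.

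Several of the called genes act in mating. Haploid yeast of opposite mating types signal through peptide pheromones, and a MAP kinase cascade then induces agglutinins, fusion proteins and membrane proteins. Of 28 genes known to be induced by pheromone, 3 were higher and 1 was lower, against 0.220% and 0.184% of all genes. The list had 22 members above 0 and 6 below, with a median difference of 0.20, whereas 48.0% of all genes lay above 0 and their median was -0.0057. The FLO1 arrays all lay higher in 12 of the 28, against 9.51% of all genes, and all lower in 2, against 9.23%.

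PRM1 (YNL279W), which promotes plasma membrane fusion of mating cells, read 9.38, 9.38 and 9.44 on the FLO1 arrays, against 8.64, 8.53 and 8.64 on the FLO8-labelled arrays. The difference was 0.79 (SE 0.0731, limma adjusted p = 0.00512). FIG1 (YBR040W), a membrane protein needed for efficient mating, read 7.52, 7.49 and 7.25 on the FLO1 arrays, against 6.37, 6.51 and 6.59 on the FLO8-labelled arrays (0.93, SE 0.10, limma adjusted p = 0.00691). PRM6 (YML047C), a pheromone-regulated membrane protein, read 6.71, 6.75 and 6.86 on the FLO1 arrays, against 6.14, 6.07 and 6.14 on the FLO8-labelled arrays (0.66, SE 0.0763, limma adjusted p = 0.0103). In each of the 3 genes every FLO1 array lay above every FLO8-labelled array. WT averaged 8.44 ± 0.23 for PRM1, 6.71 ± 0.22 for FIG1 and 6.16 ± 0.19 for PRM6 (SD, n = 3), all nearer to the FLO8-labelled strain. FUS3 (YBL016W), the MAP kinase of the pheromone pathway, read 10.26, 10.26 and 10.30 on the FLO1 arrays, against 10.70, 10.76 and 10.71 on the FLO8-labelled arrays. It was the smallest of the 22 differences, at -0.45 (SE 0.0694, 1.37-fold lower, limma adjusted p = 0.0429). PRM1 kept its call without any single array. FIG1 lost its call without FLO8 Ground replicate 2 (limma adjusted p = 0.0570). PRM6 lost its call without FLO1 Ground replicate 2, FLO1 Ground replicate 3 or FLO8 Ground replicate 2 (limma adjusted p up to 0.0707), and FUS3 lost it without any one array except FLO8 Ground replicate 3 (up to 0.275).

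AGA2 (YGL032C), the adhesion subunit of a-agglutinin, which cells of mating type a display, read 7.57, 7.56 and 7.48 on the FLO1 arrays, against 6.0, 5.98 and 6.49 on the FLO8-labelled arrays. The groups stood well apart, with a difference of 1.38 (SE 0.136, 2.6-fold, limma adjusted p = 0.0064), and the call held without any single array. WT read 7.41 ± 0.30 (SD, n = 3), near the FLO1 strain. It was the 1 member of 7 a-specific genes that was called, against 0.404% of all genes, and 4 of the 7 had every FLO1 array higher, against 9.51% of all genes. STE2, the receptor for alpha factor, differed by 0.48 (SE 0.106) and was not called with all arrays. None of 6 alpha-specific genes measured was called: the receptor gene STE3 differed by 0.25 (SE 0.0949, limma adjusted p = 0.314) and the agglutinin gene SAG1 by 0.26 (SE 0.0923, limma adjusted p = 0.30).

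The mating type was checked with markers on the same arrays. The mean of 4 alpha-cell markers, the pheromone genes MF(ALPHA)1 and MF(ALPHA)2 with STE3 and SAG1, was 11.49 to 11.57 on FLO1 arrays and 11.33 to 11.46 on FLO8-labelled arrays. For 6 a-cell markers, the pheromone genes MFA1 and MFA2 with STE2, STE6, BAR1 and AGA2, the mean was 8.31 to 8.40 on FLO1 arrays and 7.99 to 8.21 on FLO8-labelled arrays. Among 4 regulators of meiosis, which mark sporulating diploids, it was 7.69 to 7.88 on FLO1 arrays and 7.88 to 8.18 on FLO8-labelled arrays. Of these IME1 differed by -1.30 (SE 0.405), whereas IME2 differed by 0.15, SPS1 by 0.069 and NDT80 by -0.082, none of them called. None of the 14 markers averaged below 4.56, the level under which 95% of the probe sets for fission yeast genes lay. Only 63 of the 5449 genes lay below it, so this level cannot tell whether a-cell genes were expressed in cells labelled alpha. Of the a-cell markers, MFA2 and STE6 had the opposite sign to AGA2, with differences of -0.57 (SE 0.220) and -0.14 (SE 0.0817). The part of cell type in the AGA2 difference was not tested. Of the 4 auxotrophic marker genes mutated in BY4742, LYS2 and URA3 lay below 4.56 in both strains. LEU2 averaged 5.07 ± 0.05 on FLO1 arrays and 5.03 ± 0.05 on FLO8-labelled arrays, and HIS3, far above background, averaged 9.91 ± 0.11 on FLO1 arrays and 10.13 ± 0.08 on FLO8-labelled arrays (SD, n = 3 each).

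PRM7 (YDL039C), a predicted pheromone-regulated membrane protein that was not in the list above, was the second largest difference below 0. It read 9.65, 8.83 and 9.69 on the FLO1 arrays, against 11.23, 11.10 and 11.22 on the FLO8-labelled arrays. The FLO1 arrays spread over most of 1 log2 unit and still lay below all FLO8-labelled arrays, with a difference of -1.79 (SE 0.209, 3.47-fold lower, limma adjusted p = 0.0103). WT arrays spread more widely, with 9.51, 10.67 and 8.18. Without FLO8 Ground replicate 1 or FLO8 Ground replicate 2 the call was lost (limma adjusted p up to 0.0610). BSC1, the gene next to PRM7, read lower in the FLO1 strain on every array without a call (-0.998, SE 0.208, limma adjusted p = 0.125), and its FLO1 mean of 4.41 lay under the background level.

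Among 29 known regulators of FLO11 measured, 1 was higher (FLO8, described above) and 1 was lower, against 0.220% and 0.184% of all genes. Of these regulators 13 lay above 0 and 16 below, with a median of -0.019. The lower one was PHD1 (YKL043W), a transcription factor that promotes pseudohyphal growth. PHD1 read 12.03, 12.14 and 12.27 on the FLO1 arrays, against 12.80, 12.76 and 12.73 on the FLO8-labelled arrays. The groups did not overlap (-0.62, SE 0.0853, 1.53-fold lower, limma adjusted p = 0.0242), and the call was lost without any one array except FLO8 Ground replicate 3 (up to 0.134). MSS11 (YMR164C), the factor that acts together with Flo8 at FLO genes, averaged 8.12 ± 0.10 in the FLO1 strain and 8.12 ± 0.04 in the FLO8-labelled strain (SD, n = 3 each). RAS1 (YOR101W), a GTPase that activates adenylate cyclase upstream of the protein kinase A that controls Flo8, read 10.46, 10.30 and 10.48 on the FLO1 arrays, against 9.53, 9.78 and 9.85 on the FLO8-labelled arrays. It was higher by 0.69 (SE 0.104, limma adjusted p = 0.0377), a call lost without any one array except FLO8 Ground replicate 3 (up to 0.232).

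Of 32 genes for structural mannoproteins of the cell wall, 2 were called, FLO11 and TIR2, both lower in the FLO1 strain (0.184% of all genes were called lower). In this list 23 of 32 members lay below 0, against 52.0% of all genes. The median was -0.088. TIR2 (YOR010C), a wall mannoprotein of cold and oxygen-poor growth, read 10.63, 10.67 and 10.81 on the FLO1 arrays, against 11.48, 11.69 and 11.33 on the FLO8-labelled arrays. The groups stood apart (-0.80, SE 0.107, 1.74-fold lower, limma adjusted p = 0.0208). HPF1 (YOL155C), a mannoprotein known for reducing haze in wine, went the other way, with 11.66, 11.67 and 11.54 on the FLO1 arrays, against 11.08, 10.74 and 10.74 on the FLO8-labelled arrays. Its level was higher by 0.77 (SE 0.108, limma adjusted p = 0.0242), and WT was higher still at 12.08 ± 0.08 (SD, n = 3). YOL155W-A, the gene beside HPF1, changed in the opposite direction. It read 7.32, 7.65 and 7.38 on the FLO1 arrays, against 8.46, 8.32 and 8.40 on the FLO8-labelled arrays (-0.94, SE 0.101, limma adjusted p = 0.00691). The TIR2 call was lost without any one array except FLO8 Ground replicate 3 (limma adjusted p up to 0.132). HPF1 lost its call without any one of the FLO1 arrays or FLO8 Ground replicate 2 (up to 0.151), and YOL155W-A lost it without FLO1 Ground replicate 3 (0.0567). None of 35 genes for glucan and chitin remodelling was called with all arrays, and the lowest p-values were those of KNH1, a gene of beta-glucan synthesis (0.31, SE 0.0818, limma adjusted p = 0.191), and UTR2, a chitin transglycosylase (-0.68, SE 0.184, limma adjusted p = 0.198). Neither was any of 21 genes of the cell wall integrity pathway or of 13 genes for separation of daughter cells. Without FLO8 Ground replicate 3, WSC4 of the integrity pathway was called lower and DSE1 of daughter cell separation higher. In that fit 1.08% of all genes were called higher and 1.73% lower.

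The list of hypoxic and anaerobic genes, which includes regulators such as ROX1 and UPC2, also held lower calls. Of 25 measured, 2 were lower, against 0.184% of all genes, and none was higher. The median was -0.20, and 19 members lay below 0, against 52.0% of all genes. In 9 of them every FLO1 array was lower (36% of the list, against 9.23% of all genes). AAC3 (YBR085W), the ADP/ATP carrier of anaerobic mitochondria, read 7.65, 7.77 and 7.67 on the FLO1 arrays, against 8.63, 8.67 and 8.30 on the FLO8-labelled arrays. The difference was -0.84 (SE 0.110, 1.79-fold lower, limma adjusted p = 0.0195), and the other called member was TIR2. TIR3 (-0.89, SE 0.167, limma adjusted p = 0.111) and TIR4 (-0.62, SE 0.122, limma adjusted p = 0.121), related wall mannoproteins named here after their values were seen, did not pass. The AAC3 call was lost without any one array except FLO8 Ground replicate 3 (up to 0.119). None of 13 seripauperin (PAU) genes was called, and 7 of them lay below 0 (median -0.0086). Among 28 ergosterol synthesis genes none was called either, against 0.404% of all genes, and 23 lay below 0 (median -0.077). Without FLO8 Ground replicate 3, 11 of the 13 PAU genes lay below 0 (median -0.113), again without a call. Of the ergosterol genes 19 then lay below 0 (median -0.113), and ERG2 was called lower, against 1.73% of all genes.

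The remaining calls were single genes of other functions. SPS100 (YHR139C), a spore wall protein, read 13.39, 13.48 and 13.46 on the FLO1 arrays, against 12.63, 12.32 and 12.59 on the FLO8-labelled arrays (0.93, SE 0.0965, limma adjusted p = 0.0064), and was the 1 of 36 meiosis and sporulation genes called. FET3 (YMR058W), the multicopper oxidase of high-affinity iron uptake, read 11.78, 11.68 and 11.83 on the FLO1 arrays, against 11.10, 11.29 and 11.16 on the FLO8-labelled arrays (0.58, SE 0.0842, limma adjusted p = 0.0315), the 1 of 37 iron and copper genes called. Of all genes 0.404% were called, and 1 call in a list is no result about that list. YLR012C, of unknown function, read 7.42, 7.66 and 7.52 on the FLO1 arrays, against 6.79, 6.32 and 6.64 on the FLO8-labelled arrays (0.95, SE 0.128, limma adjusted p = 0.0208). All 3 were higher in the FLO1 strain without overlap. CMR3 (YPR013C), a predicted zinc-finger protein, read 10.28, 10.47 and 10.36 on the FLO1 arrays, against 11.13, 11.32 and 11.27 on the FLO8-labelled arrays (-0.87, SE 0.0878, limma adjusted p = 0.0064). YBR238C, a paralogue of RMD9, read 7.78, 7.32 and 7.70 on the FLO1 arrays, against 8.57, 8.66 and 8.50 on the FLO8-labelled arrays (-0.98, SE 0.125, limma adjusted p = 0.0168). YOL014W, of unknown function, read 9.64, 9.44 and 9.33 on the FLO1 arrays, against 10.45, 10.47 and 10.21 on the FLO8-labelled arrays (-0.91, SE 0.108, limma adjusted p = 0.011). These 3 were lower in the FLO1 strain, and their groups did not overlap either. SPS100 lost its call without FLO1 Ground replicate 3 (limma adjusted p = 0.0567), as did CMR3 (0.0527). The others lost it without at least 3 of the single arrays, with limma adjusted p up to 0.209 for FET3, 0.0987 for YLR012C, 0.0869 for YBR238C and 0.0707 for YOL014W. None of these 4 lost it without FLO8 Ground replicate 3.

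In 44 of the 52 gene lists described no member was called with all 6 arrays, yet several leaned to one side by small amounts. All of the following shares stand against 52.0% of all genes below 0 and 48.0% above. Below 0 lay 21 of 24 subunits of RNA polymerases I and III (median -0.19), 60 of 77 ribosome biogenesis factors (median -0.15), 59 of 75 large-subunit ribosomal proteins (median -0.12) and 41 of 52 small-subunit ones (median -0.12). Synthesis genes of the histidine, aromatic and other amino acids had 29 of 36 members below 0 (median -0.17), and those of leucine, isoleucine and valine 10 of 13 (median -0.17). Above 0 lay 29 of 33 genes for the use of ethanol, acetate and fatty acids (median 0.14) and 28 of 32 general stress genes (median 0.088). Averaged per array, the RNA polymerase, ribosome biogenesis, ribosomal protein and leucine, isoleucine and valine lists overlapped between the strains. The other amino acid, carbon and stress lists did not. Ribosome biogenesis factors averaged 9.25, 8.83 and 9.10 on the FLO1 arrays, against 9.22, 9.28 and 9.09 on the FLO8-labelled arrays. On WT ground arrays they ran from 8.96 to 9.73. The acyl-CoA oxidase gene POX1 had the lowest p of the carbon list (0.57, SE 0.120, limma adjusted p = 0.125). Without FLO8 Ground replicate 3, 24 of the 33 carbon genes and 25 of the 32 stress genes lay above 0. Below 0 then lay 20 RNA polymerase subunits, 66 ribosome biogenesis factors, 66 large-subunit and 47 small-subunit ribosomal proteins. The amino acid counts stayed at 29 and 10. That fit called ADH2 and POX1 higher and RPC17, RPA135, UTP18, RPL22A and MSN4 lower, besides amino acid genes. Of all genes it called 1.08% higher and 1.73% lower. Members of a list are not independent of each other, so these counts are descriptions of the arrays used and were not tested.

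**Figure D3:**
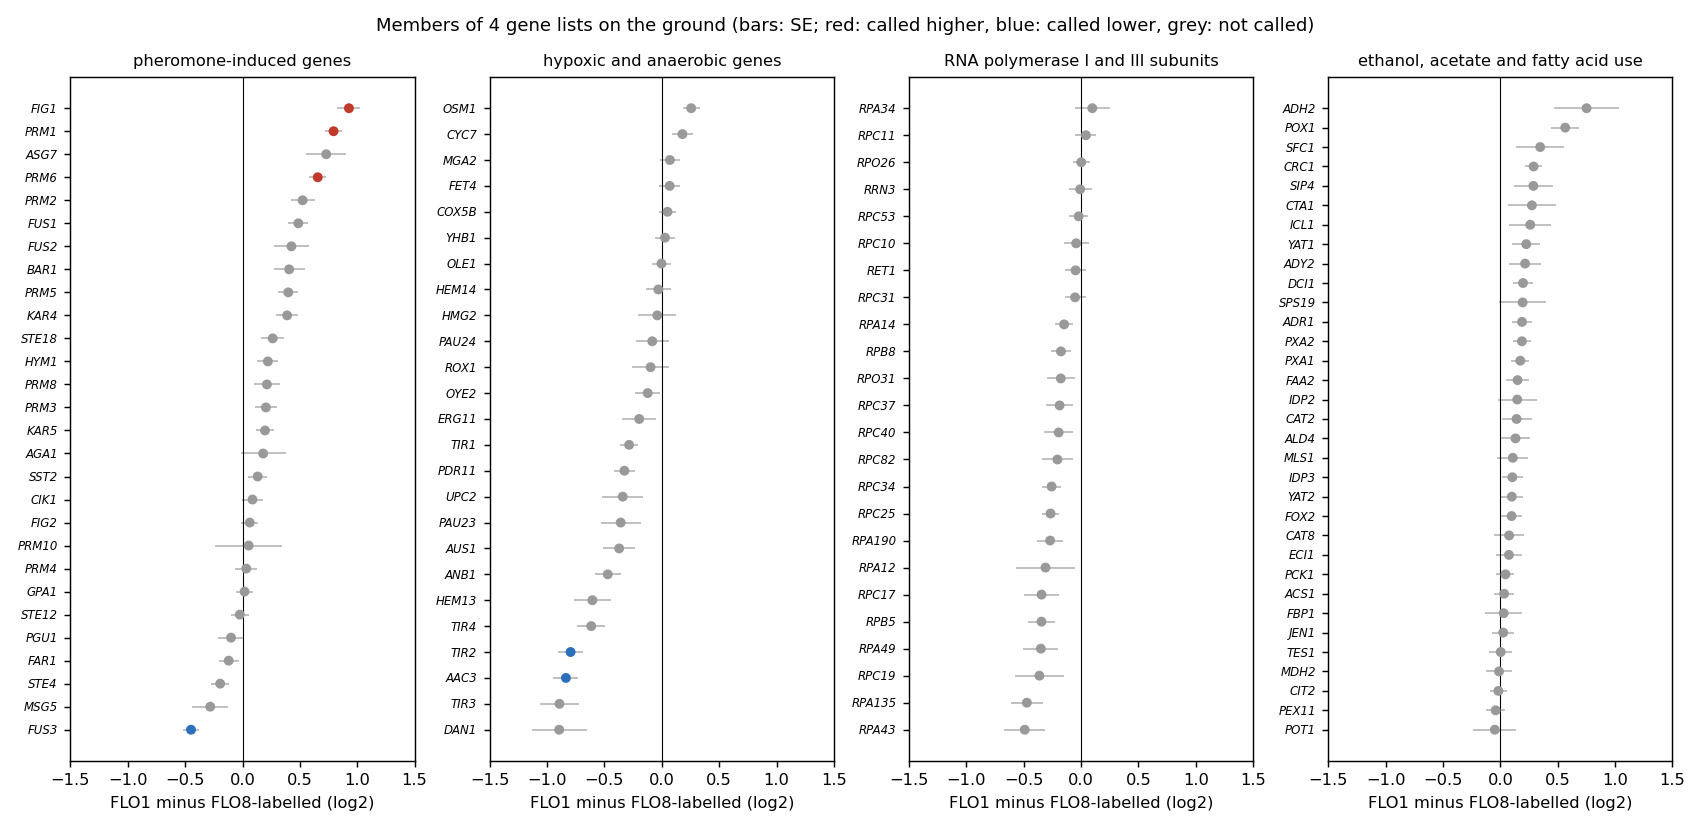
Difference between the strains (log2, points, with SE as bars) for each measured member of 4 gene lists, with called genes coloured. Of 28 pheromone-induced genes 22 lie above 0, of 25 hypoxic genes 19 lie below 0, of 24 RNA polymerase I and III subunits 21 lie below 0, and of 33 genes for ethanol, acetate and fatty acid use 29 lie above 0.

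The number of calls turned on FLO8 Ground replicate 3. Without it 59 genes were higher (1.08%) and 94 lower (1.73%) at a limma adjusted p under 0.05, in all 2.81% of the genes, and the 22 genes above were among them. Leaving out any other array gave 6 to 10 genes higher and 2 to 7 lower. Hypoxic genes then had 7 lower members of 25, which were AAC3, TIR2, DAN1, HEM13, TIR3, TIR4 and PDR11. In this fit TIR3 differed by -1.03 (SE 0.148, limma adjusted p = 0.0128) and TIR4 by -0.72 (SE 0.107, limma adjusted p = 0.0143). Pheromone-induced genes had 6 higher members of 28, with ASG7, FUS1 and FUS2 added, and still FUS3 lower. The a-specific genes had AGA2, ASG7 and STE2 higher and MFA2 lower, of 7. Glucan and chitin remodelling enzymes had 5 lower members of 35, which were UTR2, SIM1, GAS1, EXG1 and SCW10. UTR2 then differed by -0.91 (SE 0.106, limma adjusted p = 0.00473). MIT1, a transcription factor of pseudohyphal growth named after its values were seen, differed by -0.69 (SE 0.141, limma adjusted p = 0.125) with all arrays and by -0.84 (SE 0.0996, limma adjusted p = 0.0048) without replicate 3. IME1 (YJR094C), the inducer of meiosis, averaged 8.64 ± 0.54 in the FLO1 strain and 9.94 ± 0.83 in the FLO8-labelled strain (SD, n = 3 each). Its difference was -1.30 (SE 0.405, limma adjusted p = 0.259) with all arrays and -1.77 (SE 0.256, limma adjusted p = 0.0128) without replicate 3. Both IME1 and FLO11 were lowest on replicate 3 among the FLO8-labelled arrays.

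**Figure D4:**
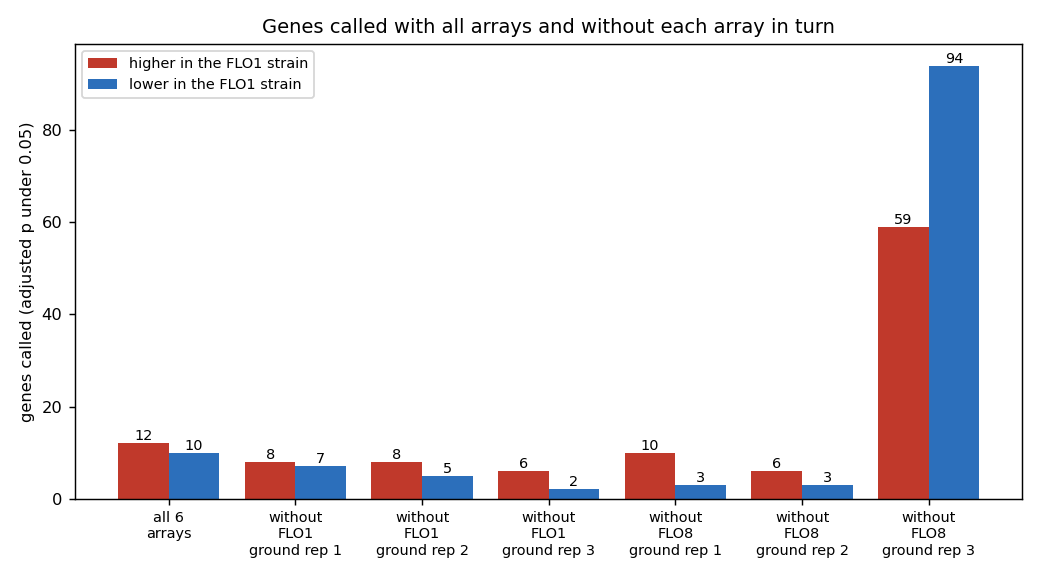
Number of genes called (limma adjusted p under 0.05) higher and lower in the FLO1 strain with all 6 arrays and without each array in turn. Counts are 12 and 10 with all arrays, 59 and 94 without FLO8 Ground replicate 3, and between 2 and 10 in the other cases.

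The flight arrays repeated the contrast in arrays not used above, 2 of the FLO1 strain against 3 of the FLO8-labelled strain. No gene was called in flight by limma, and 50 (0.918%) had an unadjusted p under 0.05. The spread within groups was larger there, with a root mean square distance from the group mean of 0.351 for FLO1 and 0.460 for FLO8-labelled arrays, against 0.108 and 0.142 on the ground. Of the 22 genes 16 had the same sign in flight, 9 of the 12 higher and 7 of the 10 lower, whereas 52.2% of all genes had the same sign. The 16 include FLO1, FLO8, FLO9 and FLO11, which set the strains apart on the ground. Their repeat in flight follows from the choice of strains and is no separate result. In 7 of the 22 the flight arrays separated in the same direction, namely FLO1, FLO8, FLO9, PRM1, HPF1, FLO11 and PRM7. Of these, only PRM1, HPF1 and PRM7 are not FLO genes. The share of all genes whose flight arrays separated was not counted, so the number 7 stands without a baseline.

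In flight FLO1 read 12.57 and 12.52 in the FLO1 strain, against 9.59, 8.93 and 10.64 in the FLO8-labelled strain (2.82, SE 0.508). FLO11 read 8.56 and 9.48 in the FLO1 strain, against 12.09, 12.16 and 13.02 in the FLO8-labelled strain (-3.40, SE 0.440, limma adjusted p = 0.679). Both differences were close in size to those on the ground. HPF1 read 13.48 and 11.97 in the FLO1 strain, against 11.93, 11.36 and 10.04 in the FLO8-labelled strain (1.62, SE 0.664). PRM7 read 9.24 and 10.18 in the FLO1 strain, against 10.28, 10.38 and 10.33 in the FLO8-labelled strain (-0.62, SE 0.363). AGA2 overlapped in flight, with 6.35 and 6.42 in the FLO1 strain, against 5.77, 5.50 and 6.98 in the FLO8-labelled strain (0.30, SE 0.476). The signs of FIG1, RAS1, FET3, AAC3, YOL014W and YBR238C turned in flight, with overlapping arrays in each. The test of the difference itself, the strain difference in flight against that on the ground, called no gene by limma (138 at an unadjusted p under 0.05). Without FLO1 Microgravity replicate 2 that test called 110 genes.

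**Figure D5:**
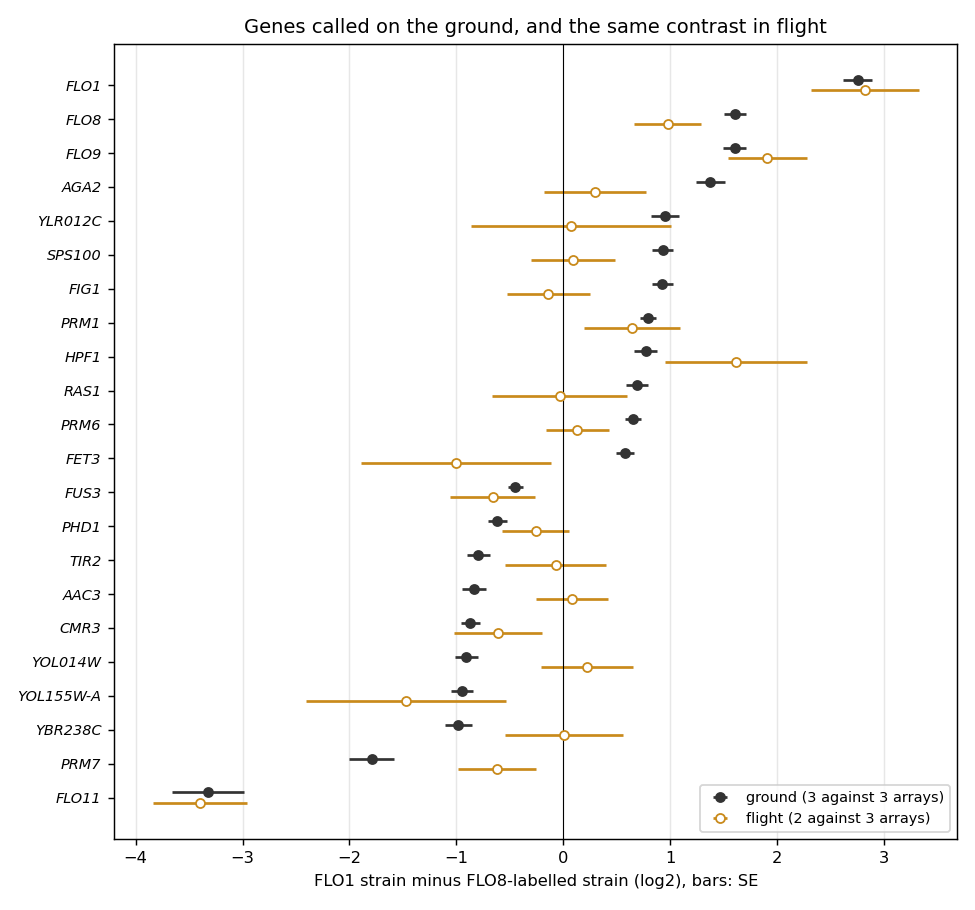
Difference between the strains (log2, with SE as bars) for the 22 genes called on the ground (filled, 3 against 3 arrays) and the same genes in flight (open, 2 against 3 arrays). FLO1 and FLO9 at the top and FLO11 at the bottom keep their size in flight, and 6 of the 22 cross to the other side of 0.

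No gene flanking the 4 changed FLO loci was called with all 6 arrays, where 0.404% of all genes were called. At that share, the lack of a call among 16 genes says little about these loci. In the gene order of the RefSeq annotation of assembly R64, 16 measured genes lie within 2 places of FLO1, FLO8, FLO9 or FLO11, and their differences ran from -0.85 to 0.64. The lowest was YAL064W, near FLO9 (SE 0.155, limma adjusted p = 0.102), with 7.01 ± 0.02 on FLO1 arrays and 7.86 ± 0.34 on FLO8-labelled arrays (SD, n = 3 each). MAM1, near FLO8, was the highest (SE 0.183, limma adjusted p = 0.230). Without FLO8 Ground replicate 3, YAL064W (-0.91, SE 0.164, limma adjusted p = 0.0279) and YAR066W, near FLO1 (-0.52, SE 0.0880, limma adjusted p = 0.0236), were called lower. In that fit 1.73% of all genes were called lower. Among 86 measured genes within 2 places of a called gene, HPF1 and YOL155W-A were the only pair in which both were called.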

How the data were processed

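RNA of 17 samples was hybridised to 1-colour Affymetrix Yeast Genome 2.0 arrays, and 6 of them enter the main comparison. The deposited values are log2 levels per probe set, already normalised by the authors; the submitters' processing notes name RMA, affy 1.26.1 and MAS5, without their roles. Intensities before normalisation were not analysed here, so array number and not depth limits the precision. Of 10928 probe sets, 5498 carry 1 Saccharomyces cerevisiae symbol, 1746 read Schizosaccharomyces pombe, 166 are controls, 3517 have no gene here and 1 has several symbols; 12 symbols were updated through the RefSeq table. For 47 genes with several probe sets the one with the highest mean over all 17 arrays was kept, giving 5449 genes. The background level, 4.56, is the level under which 95% of the fission yeast probe sets lie by their mean, and 63 genes are below it.

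Differences were fitted with limma 3.58.1 (lmFit, eBayes) in R 4.3.3 on the 6 ground arrays, the 5 flight arrays or, for the interaction, all 11, with Benjamini-Hochberg adjustment over 5449 genes; the script was tested on simulated data. No 2 of the 17 arrays held identical values (136 pairs). Mean 3' minus 5' differences of 7 control genes were 1.08 ± 0.07 on FLO1 and 1.14 ± 0.06 on FLO8-labelled arrays (SD, n = 3 each).

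Named genes were the FLO genes with FLO8 and MSS11, up to 15 called genes per direction without overlap, and per list up to 6 called members or the 2 with the lowest p. Genes named outside that rule are said to be so or stand as markers, neighbours or newly called members. Members and the 52 lists were chosen with earlier results of these data known. Lists are described, not tested.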

Additional observations from a re-analysis of the deposited data

Results flagged for a closer look

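One reporter probe set outside the gene table was bright in 1 strain only. RPTR-Sc-AJ002682-1_s_at read 13.80, 13.71 and 13.87 on the FLO1 ground arrays, against 3.60, 3.59 and 3.73 on the FLO8-labelled ground arrays. The difference was 10.15 (SE 0.0890, limma adjusted p = 1.40e-13 over 10928 probe sets). The WT ground arrays averaged 3.68, and the FLO1 flight arrays read 13.96 and 13.79. The FLO8-labelled and WT levels lay below the background level, so no fold is given. The files do not name what the probe set reads. Of 47 reporter probe sets, 1 other was called, RPTR-Sc-J01347-3_at, with 13.01 on FLO1 and 13.68 on FLO8-labelled arrays.

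In 4 of the genes with values tabulated, none of them called, every ground array of the strains separated one way and every flight array the other way. How many of all genes did so was not counted. ADH3, a mitochondrial alcohol dehydrogenase, differed by 0.15 in flight and -0.15 on the ground. CTT1, the cytosolic catalase, differed by -1.404 in flight and 0.38 on the ground. LYS4, of lysine synthesis, differed by 0.67 in flight and -0.30 on the ground. MIT1 differed by 0.50 in flight and -0.69 on the ground. The interaction test gave limma adjusted p = 0.999 for each of the 4, so these differences between flight and ground are not established.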

How the results depend on the processing

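The 22 called genes kept their direction under all 12 alternative settings and all 6 fits that left out 1 array (396 values), and 118 of these values no longer passed the threshold. FLO1, FLO8, FLO9 and FLO11 passed in every one, and PRM1 and AGA2 passed in all 6 left-out fits. Counts of genes higher and lower were 3 and 1 with all 17 arrays in 1 fit, 7 and 3 with the 9 ground arrays, 787 and 1066 with array weights (a fit that did not fully converge), and 3 and 1 when tested against a difference of 0.5. Leaving out 1 array gave 6 to 59 higher and 2 to 94 lower, the upper ends without FLO8 Ground replicate 3. Of 884 list medians, 39 moved by more than the spread between arrays. Median centring, quantile normalisation, the background filter, the trend and robust options, mean probe sets and adjustment over all 10928 probe sets (added after seeing the data) gave 12 higher and 10 or 11 lower.

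Deviations of same-numbered arrays from their group means correlated at 0.20, -0.42 and -0.41. Such deviations cancel out within each group, so the correlations constrain each other and cannot settle whether replicate numbers pair the arrays. Across numbers, FLO1 Ground replicate 2 and FLO8 Ground replicate 3 correlated at 0.55, and FLO1 Ground replicate 3 and FLO8 Ground replicate 2 at 0.41. The remaining pairs ran from -0.38 to 0.23. What these arrays share was not tested. With the replicate block 4 genes were higher and 4 lower on the ground, and 4 and 1 in flight. In flight, all 17 arrays in 1 fit gave 2 higher and 1 lower, and leaving out an array gave 0. The interaction count ran from 0 to 110, the 110 without FLO1 Microgravity replicate 2.

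MSS11, not called, turned to -0.045 with array weights, -0.049 without FLO1 Ground replicate 2 and -0.015 without FLO8 Ground replicate 1, against 0.0040 as reported; it ran from -0.049 to 0.046 over the fits without 1 array. The causes were not tested.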

Other observations

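For 3 retrotransposon genes, picked after their values were seen from a class not tallied here, the means were higher in the FLO1 strain without a call. YGR109W-B, of a Ty3 element, averaged 12.44 ± 0.49 in the FLO1 strain and 10.95 ± 0.55 in the FLO8-labelled strain (SD, n = 3 each), a difference of 1.49 (SE 0.305, limma adjusted p = 0.125). YIL082W-A, of the other Ty3 element, differed by 1.14 (SE 0.229, limma adjusted p = 0.121), and YAR009C, of a Ty1 element, by 1.01 (SE 0.214, limma adjusted p = 0.125). Without FLO8 Ground replicate 3 the 3 differences were 1.78, 1.41 and 1.19, each with a limma adjusted p under 0.05. In flight they were 0.23, 0.17 and 0.19, with overlapping arrays. Copies of these elements are near-identical, so the signal cannot be given to 1 locus.

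Without FLO8 Ground replicate 3, amino acid genes added lower calls: ILV1, ILV3, BAT1 and LEU9 of 13 genes for leucine, isoleucine and valine, and TRP4, HIS7, HIS1, GDH1 and ARO2 of 36 for other amino acids, against 1.73% of all genes called lower in that fit. ILV1, threonine deaminase, differed by -0.56 (SE 0.0860, limma adjusted p = 0.0168) there and by -0.41 (limma adjusted p = 0.266) with all arrays.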
